A study of Mus musculus with 6 samples.

Results

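The cationic amino acid carriers are the 5 genes Slc7a1, Slc7a2, Slc7a3, Slc7a4 and Slc7a14 of the SLC7 family, out of 52550 genes listed in the count tables. They were grouped by family membership, and the family was chosen from earlier results of these same counts, in which the knockout and control levels of Slc7a3 already stood apart. The knockout-minus-control values below therefore describe the members, and no independent support is drawn from them. All 5 had enough reads for the fit over all genes, in which 14913 genes were tested. The RNA was polyadenylated RNA from the cerebral cortex of C57BL6/J mouse pups at postnatal day 2, 1 hemisphere per library. All pups, the animals titled wild type included, were Slc7a5 fl/fl, that is, both copies of the LAT1 light chain gene were floxed. The knockout pups also carried Emx1-Cre (n = 3 libraries) and the controls had no Cre (n = 3), so the Cre allele and the deletion cannot be told apart. Emx1-Cre recombines progenitors of the dorsal forebrain, so interneurons, microglia and vessel cells of the same tissue mostly keep the gene.

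Cationic amino acid carriers move arginine, lysine and ornithine across membranes without coupling to sodium. In the brain these amino acids feed protein synthesis, nitric oxide production, creatine and polyamine synthesis, and arginine and lysine reach the brain by crossing the endothelium. SLC7 members of this branch work as single proteins, unlike LAT1, whose light chain needs the heavy chain encoded by Slc3a2.

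Library totals on the strand used ran from 8249436 to 10372582 reads in genes. Slc7a5, the targeted gene, had CPM values (counts per 1000000 reads in genes, on TMM-scaled library sizes) of 20.2 for A, 40.7 for B and 26.1 for C in controls. In knockouts it had 15.6 for A, 9.37 for B and 11.4 for C, so the groups did not overlap, though the gene did not pass in edgeR's fit (log2 change -1.25 ± 0.28 SE, adjusted p = 0.400). The titles give each genotype the letters A, B and C, and libraries of the same letter deviated together from their group means. Values of a fit blocked on letter are given where the block changed the call of a carrier, marker or other gene described below. Both libraries of letter B had Xist, the RNA of the inactive X chromosome, at 918 and 961 CPM, and the others had at most 2.95 CPM. Reads outside exons were 22.5 to 26.5% of mapped reads in the controls and 27.4 to 27.9% in the knockouts, so this measure also separated the genotypes, and its part in the results below was not tested. Projection neuron markers were present at summed levels of 3103 to 3412 CPM in the controls and 3087 to 3324 CPM in the knockouts. Striatal markers summed to 219 to 274 CPM in controls and 207 to 262 CPM in knockouts. Choroid plexus markers summed to 0.705 to 145 CPM in controls and 2.68 to 27.3 CPM in knockouts, with Ttr at 144 CPM in control B. How far tissue around the cortex entered the libraries was not tested.

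Slc7a3 encodes CAT-3, a carrier found mainly in neural tissue, and it was the member with the widest difference between genotypes. It lies on chromosome X from 101079210 to 101086020 on the minus strand (GRCm38, ENSMUSG00000031297). The control libraries had 10.6 (A), 9.05 (B) and 14.8 CPM (C), from 105, 73 and 145 reads. The knockout libraries had 44.9 (A), 45.2 (B) and 33.1 CPM (C), from 436, 487 and 319 reads. Every knockout library lay above every control library, and the lowest knockout and the highest control both carried the letter C. The control mean was 11.5 ± 2.96 CPM and the knockout mean 41.1 ± 6.86 CPM (SD, n = 3), which is 3.58-fold higher. Within letters the knockout was 4.25-fold (A), 4.99-fold (B) and 2.24-fold (C) above its control. In edgeR's quasi-likelihood fit over all genes the log2 change was 1.83 ± 0.18 (SE), with a 95% interval from 1.45 to 2.22 and an adjusted p of 5.65e-04. That p ranked 1 among the 14913 genes. The gene is X-linked. The pair with high Xist, B, had the widest fold (4.99), and the pairs A and C, with little Xist, had folds of 4.25 and 2.24. Any link of the difference to Xist was not tested. Among 478 tested genes of the X chromosome the median log2 change was -0.0019, and Slc7a3 was the 1 gene called in the group-only fit, against 0.0335% of all tested genes. Once letters were blocked, 2 of the 478 were called, against 0.845% of all tested genes. The other one was Acsl4, a fatty acid-activating enzyme named after its values were seen, with a log2 change of -0.43 ± 0.10 (SE, edgeR adjusted p = 0.0261).

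**Figure D1:**
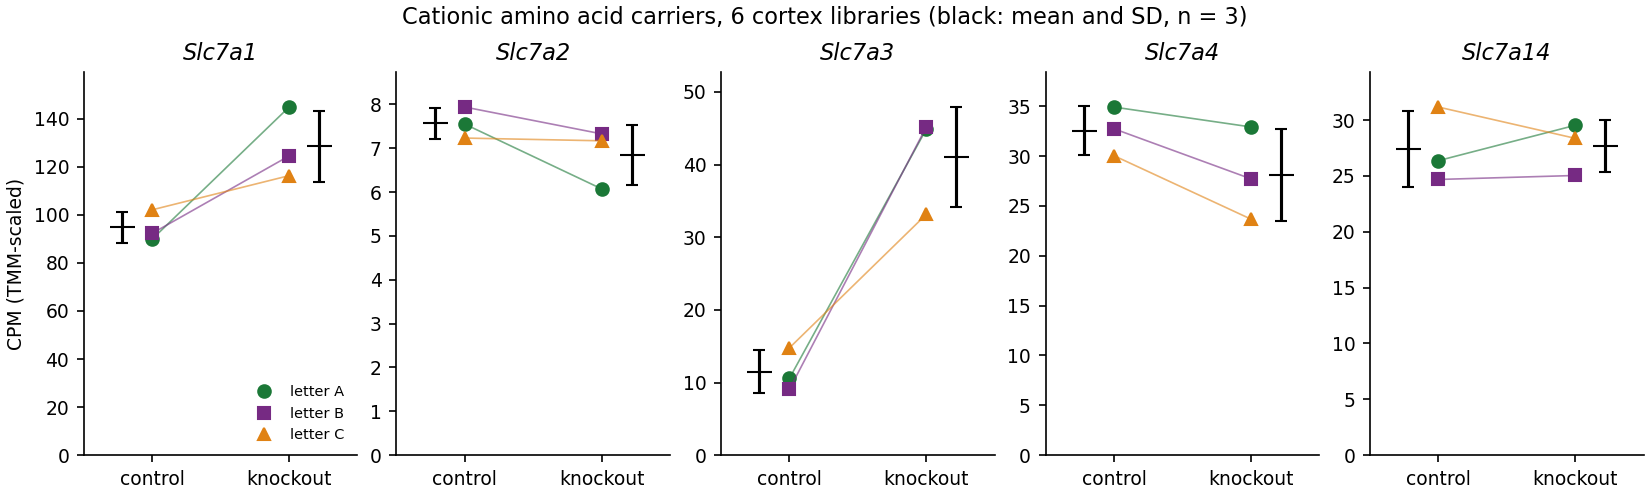
CPM (vertical axis, TMM-scaled, from 0) of each carrier in the 3 control and 3 knockout libraries, with lines joining libraries of the same letter and black marks for the mean and SD. Slc7a3 and Slc7a1 have all knockout points above all control points, and the other members overlap between genotypes.

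Slc7a1 encodes CAT-1, the widely expressed high-affinity arginine and lysine carrier that also serves as the receptor of ecotropic murine leukaemia viruses. It lies on chromosome 5 from 148327410 to 148399904 on the minus strand (ENSMUSG00000041313). The control libraries had 89.9 (A), 92.3 (B) and 102 CPM (C), from 893, 744 and 1002 reads. The knockout libraries had 145 (A), 124 (B) and 116 CPM (C), from 1407, 1342 and 1119 reads. The knockouts were again all above the controls, with a gap between knockout C and control C that was smaller than in the other pairs. The control mean was 94.7 ± 6.45 CPM and the knockout mean 129 ± 14.7 CPM (SD, n = 3), 1.36-fold higher, and the pairs A, B and C had folds of 1.61, 1.35 and 1.14. The log2 change was 0.44 ± 0.11 (SE, 95% interval 0.21 to 0.67). It did not pass in the group-only edgeR fit (adjusted p = 0.276) and passed once letters were blocked (0.44 ± 0.099, adjusted p = 0.0191). Without 1 library at a time the group-only adjusted p was at least 0.235 and the log2 change ran from 0.34 (without knockout A) to 0.50 (without knockout C).

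Endothelial cells of brain vessels are known for CAT-1, and the 6 endothelial markers examined all had log2 changes above 0, with none called. Their summed level was 87.8 to 120 CPM in controls and 89.4 to 128 CPM in knockouts. The 4 mural cell markers summed to 92.4 to 101 CPM in controls and 102 to 131 CPM in knockouts, without overlap, and 3 of the 4 were above 0. Rgs5 made up most of that sum, at means of 79.4 CPM in controls and 93.6 CPM in knockouts. The other mural markers each overlapped between genotypes. The 6 microglial markers, all above 0, summed to 107 to 139 and 122 to 169 CPM, and the 7 markers of radial glia and intermediate progenitors, all above 0, to 882 to 956 and 872 to 1111 CPM. The 5 oligodendrocyte lineage markers, all below 0, summed to 211 to 254 and 190 to 205 CPM, without overlap, though each marker alone overlapped. Among all single genes tested, the knockouts lay above all controls in 5.89% and below in 6.28%. No marker on these lists was called, with or without the block, or was at 0 in every library. The 8 interneuron markers, 7 of them above 0, summed to 1346 to 1427 CPM in controls and 1347 to 1697 CPM in knockouts. With the block 1 of these 8, Gad2, was called (log2 change 0.54, edgeR adjusted p = 0.0191). So were 3 of 8 projection neuron markers, against 0.845% of all tested genes called with the block. The part of these cells in the values of Slc7a1 and Slc7a3 was not tested, and in bulk tissue a change in the number of cells of a type and a change of RNA per cell cannot be told apart.

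Of the 2 members matched in RefSeq's promoter table (GRCm38.p6), Slc7a1 and Slc7a14, the promoter of Slc7a1 is shown because its levels did not overlap between the genotypes. The table gives a start on chromosome 5 whose 250 upstream bases are chr5:148399905-148400154, minus strand, 5′ to 3′, with every CpG dinucleotide in capitals.
Slc7a1 upstream: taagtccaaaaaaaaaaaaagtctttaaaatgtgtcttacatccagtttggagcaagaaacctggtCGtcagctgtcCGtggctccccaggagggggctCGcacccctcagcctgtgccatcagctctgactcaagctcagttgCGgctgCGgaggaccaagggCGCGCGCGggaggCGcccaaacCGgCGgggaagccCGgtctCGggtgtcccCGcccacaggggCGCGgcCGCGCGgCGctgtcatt
This stretch holds 21 CpG. The 300-base window that adds the first 50 transcribed bases holds 27, more than 84.5% of the 32851 promoter windows in the table, whose median is 7. A second annotated start of the gene, on chromosome 5 with a window from 148392766 to 148393065, has 7 CpG, and the window of Slc7a14 has 18. The letters TGATGNAA, a core of C/EBP-ATF response elements, were searched on both strands and matched in none of these windows. Only 3.97% of all windows hold a match, so its absence from so few windows says little about these genes. Bases outside the windows, which end 50 bases after the start, were not searched. The counts are summed over the gene and do not say which start was used. Promoters of Slc7a2, Slc7a3 and Slc7a4 were not analysed here.

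Slc7a2, Slc7a4 and Slc7a14 overlapped between genotypes. Slc7a2 encodes CAT-2, whose splice forms differ in their affinity for arginine, and lies on chromosome 8 from 40862396 to 40922308 on the plus strand (ENSMUSG00000031596). It was the lowest member, at 7.55 (A), 7.94 (B) and 7.23 CPM (C) in controls and 6.07 (A), 7.33 (B) and 7.17 CPM (C) in knockouts, from 59 to 79 reads a library. The log2 change was -0.14 ± 0.20 (SE, 95% interval -0.55 to 0.27, edgeR adjusted p = 0.929). Counts per gene do not separate the splice forms.

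Slc7a4 resembles the CAT proteins in sequence but has not been shown to carry cationic amino acids alone. It lies on chromosome 16 from 17572018 to 17583214 on the minus strand (ENSMUSG00000022756). It had 34.9 (A), 32.7 (B) and 30.0 CPM (C) in controls and 32.9 (A), 27.7 (B) and 23.7 CPM (C) in knockouts. Each knockout was below the control of its letter, by -0.085, -0.24 and -0.34 on the log2 scale for A, B and C, but knockout A exceeded controls B and C. The fitted log2 change was -0.21 ± 0.14 (SE, 95% interval -0.50 to 0.078, edgeR adjusted p = 0.815), and -0.22 ± 0.12 once letters were blocked (adjusted p = 0.486).

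Slc7a14, a neuronal member linked to inherited retinal degeneration, lies on chromosome 3 from 31202858 to 31310378 on the minus strand (ENSMUSG00000069072). Its levels were 26.4 (A), 24.7 (B) and 31.2 CPM (C) in controls and 29.5 (A), 25.0 (B) and 28.4 CPM (C) in knockouts, so the knockouts lay within the range of the controls. The log2 change was 0.0098 ± 0.13 (SE, 95% interval -0.27 to 0.29, edgeR adjusted p = 0.996). The intervals of Slc7a2, Slc7a4 and Slc7a14 all lie below the lower bound for Slc7a3. Those of Slc7a2 and Slc7a14 overlap that of Slc7a1, and that of Slc7a4 lies below it.

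Of the 5 members, 1 was called higher and none lower in the group-only fit, where 0.0201% of all tested genes were called higher and 0.0335% in either direction. In the blocked fit 2 members were called higher, against 0.329% of tested genes called higher and 0.845% in either direction. In 2 members the knockouts lay above all controls, which held for 5.89% of tested genes, and in none below, which held for 6.28%. Because the family was chosen with this contrast known, nothing is read from these shares. The median log2 change was 0.0098 over the 5 members and 0.0011 over all genes tested.

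**Figure D2:**
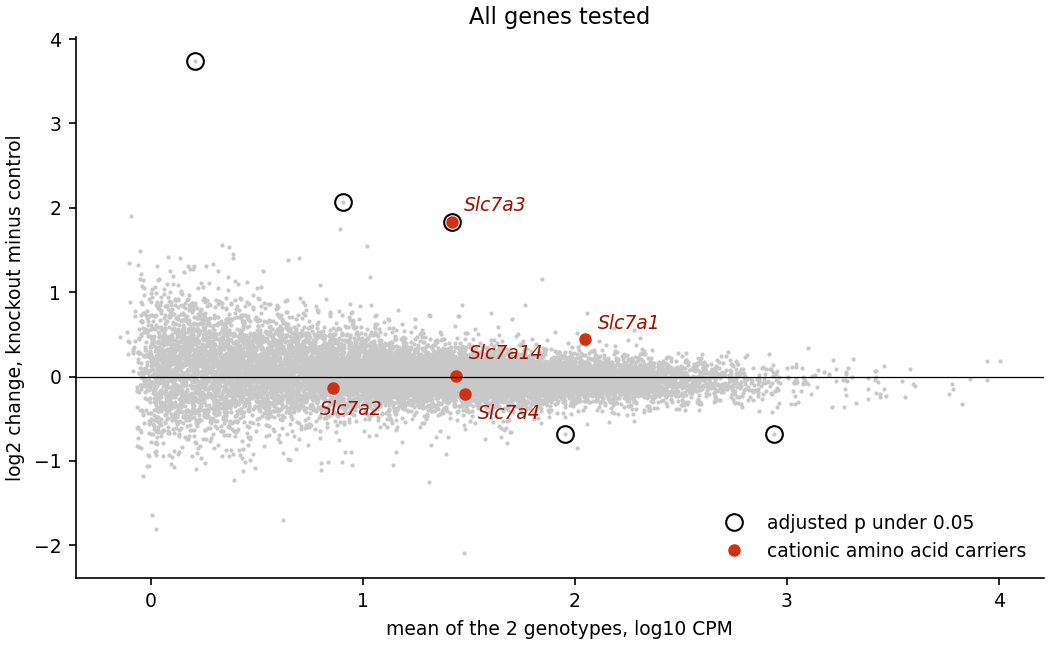
Log2 change (vertical axis, knockout minus control) against the mean level of the genotypes (horizontal axis, log10 CPM) for the 14913 genes tested, with the 5 carriers in red and the genes past the threshold ringed. Slc7a3 is ringed at 1.83, Slc7a1 lies at 0.44, and the other carriers lie between -0.21 and 0.0098.

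Members were compared with each other per length, as CPM per kilobase of the union of their annotated exons. In controls the order of these levels was Slc7a1 (8.22 ± 0.559, SD, n = 3), Slc7a4 (7.84 ± 0.589), Slc7a3 (3.03 ± 0.782), Slc7a14 (2.79 ± 0.342) and Slc7a2 (0.829 ± 0.0388). The 2 highest did not differ beyond their spread, nor did Slc7a3 and Slc7a14. In knockouts the order was Slc7a1 (11.1 ± 1.27), Slc7a3 (10.9 ± 1.81), Slc7a4 (6.77 ± 1.12), Slc7a14 (2.81 ± 0.237) and Slc7a2 (0.751 ± 0.0748). By this length Slc7a3 and Slc7a1 did not differ beyond their spread in the knockouts, and Slc7a3 was above Slc7a4, which it had been below in the controls. With the longest transcript as the length the order was the same in each genotype, but Slc7a1 and Slc7a4 were then further apart in the controls (13.2 and 9.93 CPM per kilobase), and so were Slc7a1 and Slc7a3 in the knockouts (17.9 and 14.9).

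The ratio of Slc7a3 to Slc7a1 per length, a measure that library scaling cannot move, was 0.358 (A), 0.299 (B) and 0.441 (C) in controls. In knockouts it was 0.944 (A), 1.11 (B) and 0.869 (C), above every control. Of the summed level of all 5 members, Slc7a3 made up 13.3 ± 2.72% in controls and 33.5 ± 2.74% in knockouts (SD, n = 3). The share of Slc7a1 was 36.2 ± 1.34% and 34.5 ± 1.42%, and that of Slc7a4 was 34.7 ± 3.88% and 20.9 ± 0.996%. Shares of a sum depend on each other, so a higher share of Slc7a3 lowers those of the other members. The level of Slc7a4 itself was 7.84 CPM per kilobase in controls and 6.77 in knockouts, with overlap. The summed level was 22.7 ± 1.16 CPM per kilobase in controls and 32.3 ± 3.92 in knockouts, a 1.42-fold difference, and for Slc7a1 and Slc7a3 together it was 11.2 ± 1.31 in controls and 1.96-fold higher in knockouts, where it ran from 18.8 to 24.4.

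**Figure D3:**
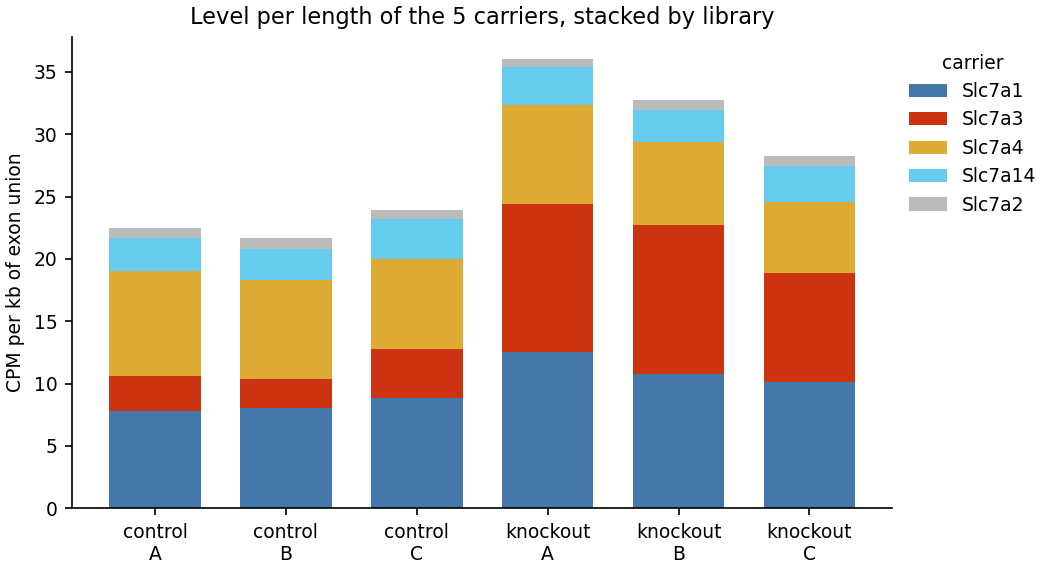
CPM per kilobase of exon union (vertical axis, from 0) of the 5 carriers, stacked for each of the 6 libraries. The Slc7a3 segment grows from 2.39 to 3.90 in controls to 8.76 to 11.9 in knockouts, and the Slc7a2 segment stays below 1 in all.

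The members are spread over 5 chromosomes and share no neighbours. The closest protein-coding gene to Slc7a3 with enough reads to be tested was Snx12, 11766 bases away on the same strand. Snx12, a sorting nexin, had 77.1 ± 11.6 CPM in controls and 75.7 ± 5.91 CPM in knockouts (SD, n = 3), a log2 change of -0.024 ± 0.12. Tex11, on the other side at 19543 bases, had 7 reads in all libraries together and was not tested. Beside Slc7a1, Mtus2 at 11345 bases had a log2 change of -0.039 ± 0.12 and Ubl3 at 104731 bases one of 0.036 ± 0.12. These neighbours had adjusted p of at least 0.968 in edgeR's fit.

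Reads of the members came almost entirely from the annotated strand. On the opposite strand Slc7a1 had 4 reads against 6507, and Slc7a2, Slc7a3, Slc7a4 and Slc7a14 had 0 against 417, 1565, 1753 and 1597. Genes that overlap a member on the opposite strand had few reads in all libraries together: 44 for P2rx6 at Slc7a4, 41 for Gm15496 at Slc7a14 and 0 for Gm26584 at Slc7a2. The coding sequences of the 5 genes, from 1854 bases in Slc7a3 to 2313 in Slc7a14, matched each other in 60.8 to 66.2% of aligned bases. No pair is therefore near-identical over its coding bases. Untranslated parts and copies elsewhere in the genome were not compared, and reads lost to multi-mapping could not be counted.

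Other genes that carry, use or sense cationic amino acids were taken from lists of 48 genes, of which 36 had enough reads. None was called in edgeR's group-only fit, in the blocked fit or in DESeq2, and 2 of the 36 had an unadjusted p under 0.05, against 1044 of the 14913 genes tested. Above 0 were 17 and below 0 were 19, with a median log2 change of -0.046 against 0.0011 over all genes tested. Knockouts lay above all controls in 2 of the 36 and below in none, against 5.89% and 6.28% of all genes tested, so the count above is near the background.

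Among the other carriers of cationic amino acids 8 of 11 were tested, and 3 were above 0 and 5 below (median -0.065). Slc3a2, the heavy chain shared by LAT1 and the y+L exchangers, had 118 ± 23.2 CPM in controls and 89.1 ± 17.4 CPM in knockouts (SD, n = 3), a log2 change of -0.41 ± 0.17 (adjusted p = 0.685). Pqlc2, the lysosomal exporter of arginine and lysine, had -0.38 ± 0.24 (adjusted p = 0.808). Slc7a6 and Slc7a7, the y+L light chains that exchange cationic for neutral amino acids, had 0.019 ± 0.14 and 0.36 ± 0.37, and Slc7a7 was at only 1.38 CPM in controls. Slc7a9, the light chain of the kidney and gut carrier for cystine and dibasic amino acids, and Slc6a14, a sodium-driven carrier, had 0 reads in all libraries.

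Genes of arginine synthesis and use were tested in 10 of 16 cases, with 5 above 0 and 5 below (median -0.018). Aldh18a1, which makes the precursor of proline and ornithine from glutamate, had 19.0 ± 1.51 CPM in controls and 25.7 ± 2.80 CPM in knockouts, without overlap, and a log2 change of 0.43 ± 0.14 (adjusted p = 0.486, with the block 0.112). Ddah2, which clears methylated arginines that inhibit nitric oxide synthases, had -0.17 ± 0.11 (adjusted p = 0.807). All 9 polyamine synthesis genes were tested (4 above 0, median -0.050), with -0.19 ± 0.12 for Azin1, an inhibitor of antizyme, and -0.11 ± 0.12 for spermidine synthase Srm. Lysine breakdown had 5 of 7 genes tested (3 above 0, median 0.25). Its values were 0.25 ± 0.13 for Aldh7a1, with knockouts above all controls, and -0.21 ± 0.14 for Crym, an enzyme and thyroid hormone binder. Of the Castor genes, listed for arginine sensing, and the synthetases for arginine and lysine, 4 of 5 were tested (2 above 0, median 0.023). Values were 0.14 ± 0.12 for Rars and 0.087 ± 0.12 for Castor2. Castor1, with 33 reads in all libraries together, was not tested.

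**Figure D4:**
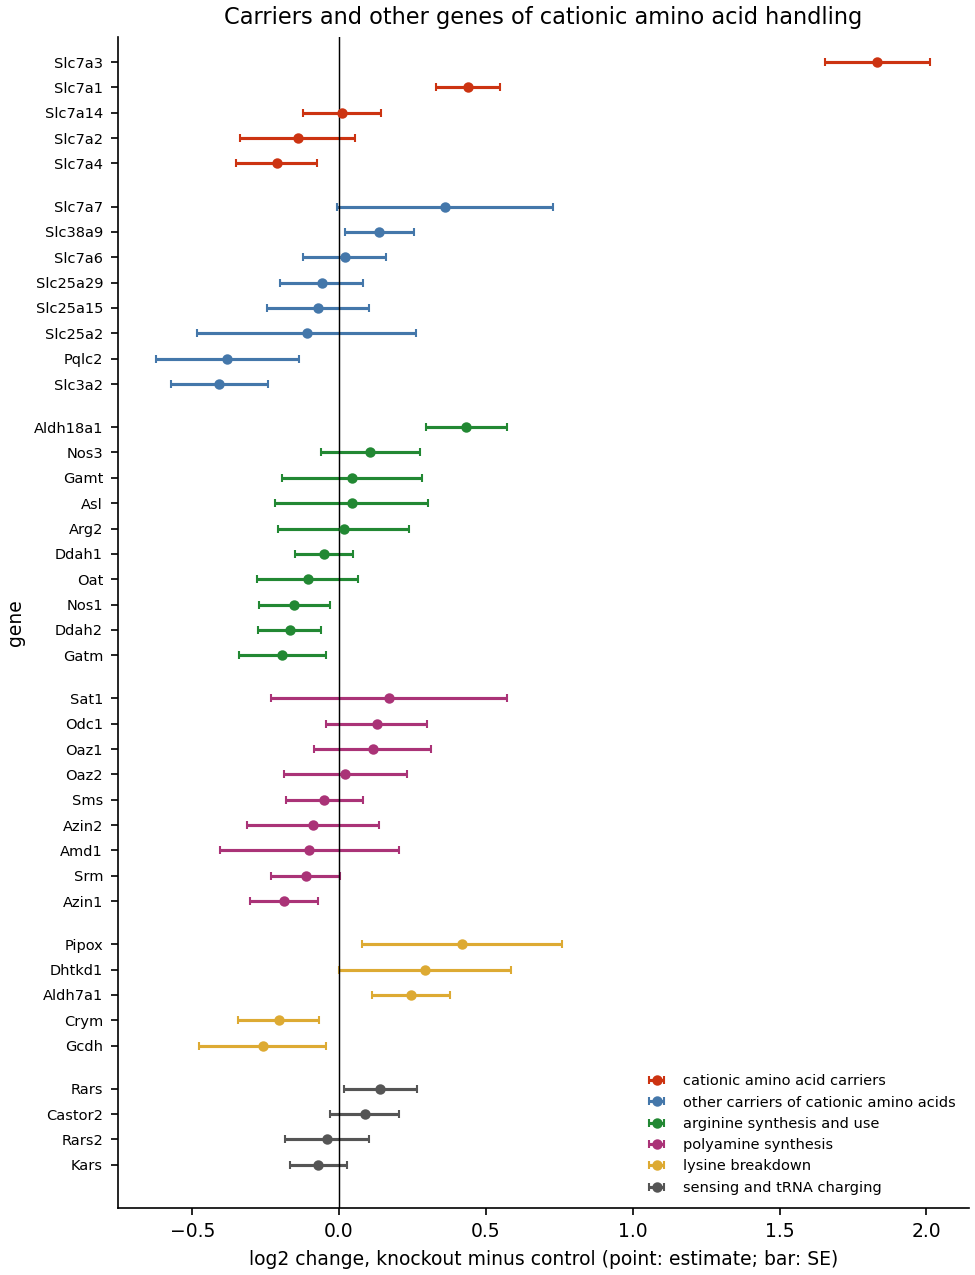
Log2 change (horizontal axis, knockout minus control, bar SE) of the 5 carriers in red and the 36 tested genes of cationic amino acid handling, coloured by list. Slc7a3 at 1.83 stands alone, and Slc7a1 at 0.44 lies beside Aldh18a1 at 0.43, which was not called.

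The genes nearest to Slc7a3 in their pattern over the 6 libraries were found by the root mean square difference of log2 CPM after centring each gene on its mean, among 12569 protein-coding genes with a mean of at least 1 CPM, leaving out symbols of the Gm and Rik kinds. The median difference was 0.974. The 6 nearest were Chac1 (0.234), a glutathione-degrading enzyme, Sesn2 (0.273), a leucine-binding regulator of mTORC1, Trim66 (0.279), Crybb1 (0.345), a crystallin, Eif4ebp1 (0.438), the translation repressor 4E-BP1, and Fgf15 (0.442), a growth factor. The measure favours genes with a like difference between genotypes, so these names follow in part from that contrast. Their log2 changes, from 1.28 (Crybb1) to 2.06 (Eif4ebp1), therefore only describe them. Eif4ebp1 was called in the group-only fit (edgeR adjusted p = 0.00445). Chac1, Sesn2 and Trim66 were called only with letters blocked (edgeR adjusted p 0.0506, 0.0506 and 0.0841 group-only, 8.98e-04, 2.39e-04 and 0.00223 blocked). Crybb1 and Fgf15 were called in neither fit. Chac1 was at 4.03 (A), 2.23 (B) and 4.38 CPM (C) in controls and at 13.7 (A), 14.9 (B) and 7.69 CPM (C) in knockouts, so it shared with Slc7a3 the lowest control in B and the lowest knockout in C. Sesn2, Trim66 and Crybb1 also had their lowest control in B, though Crybb1 was close there, at 0.620 CPM in B and 0.705 CPM in A. All 6 genes had their lowest knockout in C. Eif4ebp1 had its highest control in B, at 4.47 CPM. Crybb1 and Fgf15 were at mean levels of 0.883 and 0.858 CPM in controls.

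**Figure D5:**
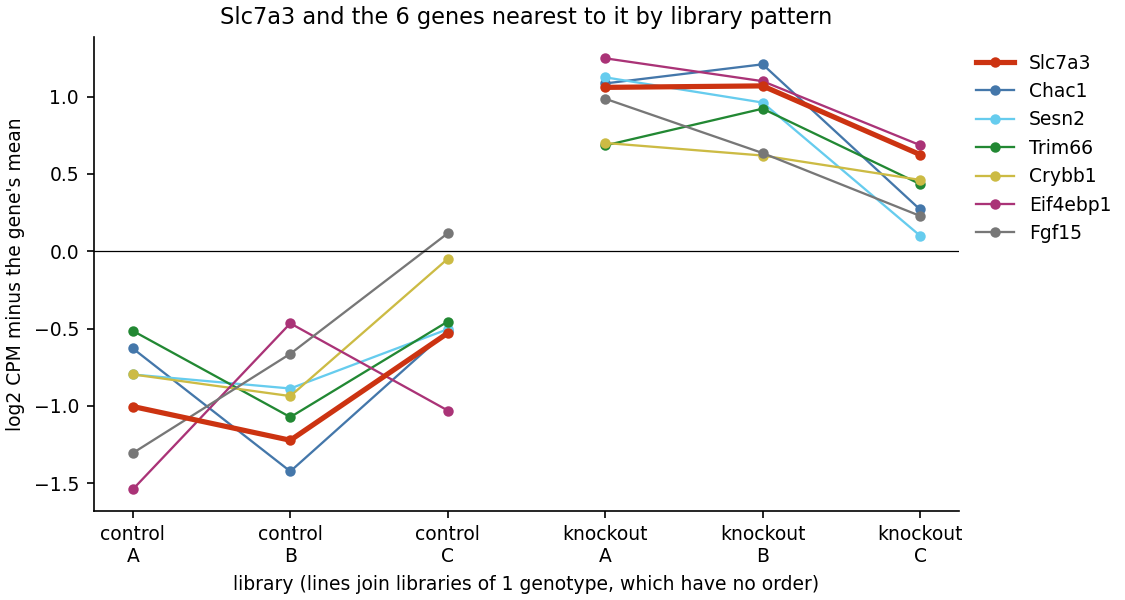
Log2 CPM minus the gene's own mean (vertical axis) in the 6 libraries for Slc7a3 (thick red line) and the 6 genes nearest to it; lines only join libraries of a genotype. The genes lie mostly below 0 in controls and above 0 in knockouts, with Fgf15 above 0 in control C.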

How the data were processed

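Gene counts of polyadenylated RNA were analysed in 3 control and 3 knockout libraries. The deposited values are raw read counts per gene, laid out as STAR writes them. STAR 2.5.4 was used per the submitters' processing notes, which list GRCm38 and mm10 as builds; the annotation release is not given in the sources used here. Libraries were made with Lexogen's SENSE kit, per the labels' protocols. The strand column with more reads (18.6 times the other) was used, and the summary lines were left out. Multi-mapping reads were listed as 0. Symbols, positions and lengths came from GENCODE M21 (52403 identifiers matched).

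Computed here were CPM on TMM-scaled library sizes, and fits in R 4.3.3 with edgeR 4.0.16 (filterByExpr, robust quasi-likelihood F-test, two-sided, Benjamini-Hochberg adjusted p under 0.05 over 14913 genes). The SE is the log2 change divided by the square root of F. Levels per length divide CPM by the union of exons. The fit was checked on simulated counts. Alternatives were the letter as a block, RLE scaling, DESeq2 1.42.0, no filter on low counts, unstranded counts, each library left out and the longest transcript as the length. Letters were treated as pairs because controls and knockouts of the same letter correlated in their deviations from the group means at 0.417, 0.342 and 0.211 (A, B, C); no label explains them. The series' design text calls the samples biological replicates. Members and lists were chosen with earlier results of these data known. Named were all members, Slc7a5, any called related gene plus the 2 with the smallest p of each list, and the 6 genes nearest to Slc7a3; others are named for their role or position, after their values were seen. A planned comparison of protein sequences was replaced by one of coding bases aligned with Biopython 1.88.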

Additional observations from a re-analysis of the deposited data

How the results depend on the processing

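The count of called genes was 5 in the group-only fit, 126 with the replicate block, 26 in DESeq2 and 71 without the filter on low counts, and it ran from 1 (without knockout B) to 9 (without knockout C) with 1 library left out; it was also 2 without control A and 2 without control B. The carriers called were 1 in the group-only fit and 2, Slc7a3 and Slc7a1, with the replicate block and with all genes kept (edgeR adjusted p of Slc7a1 = 0.0191 and 0.0395); the cause was not tested. Slc7a3 passed in every alternative run, with a log2 change of 1.70 to 2.06 and an adjusted p of up to 0.0219 with 1 library left out. Slc7a1, Slc7a2 and Slc7a4 kept their direction in all of them. Slc7a14 changed sign with 1 library left out, from -0.056 (without control B) to 0.11 (without control C). No other gene of cationic amino acid handling was called under any alternative. The block changed no other call of a member or related gene. With 59 to 79 reads a library, Slc7a2 was the member least precisely measured.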
